A study of Drosophila melanogaster with 2 samples.

Results

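The 10 genes described here carry the core of the Jun N-terminal kinase (JNK) pathway of *Drosophila melanogaster* and its transcription factor AP-1. They are the ligand gene egr, the receptor genes grnd and wgn, the kinase genes msn, slpr, hep and bsk, the AP-1 genes Jra and kay, and the phosphatase gene puc, chosen by name from 13945 protein-coding genes on 6 chromosome arms. A region was given to a gene when its summit, the position of highest signal, lay in the gene or within 5 kb to either side. By that rule 35 of the 7426 optimal regions on the arms were found at 7 of the 10 genes.

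The regions come from chromatin immunoprecipitation and sequencing (ChIP-seq) of Hr39, a nuclear receptor with no settled ligand that belongs with Ftz-F1 to the NR5 family. The material was whole white prepupae, males and females together, of the strain Hr39-RC-GFP. The labels describe transgenic flies expressing Hr39 fused to GFP at its C terminus. They do not state whether the endogenous gene was tagged. Precipitation was with an antibody to GFP. The samples form 1 group of 2 biological replicates, numbered 1 and 3, so no conditions could be compared and no test between groups was possible. No animals without the fusion were analysed here, and a region in whole animals does not show in which tissue the DNA was bound. Each region is given by its rank in a list ordered by the authors' signal value, rank 1 being the strongest.

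In the JNK pathway a tumour necrosis factor (TNF) ligand binds its receptors, kinases phosphorylate one another in a chain that ends at JNK, and JNK phosphorylates the AP-1 subunits Jun and Fos. AP-1 then activates genes such as puc, whose phosphatase switches JNK off again. In flies the pathway is best known for dorsal closure of the embryo, for closure of the adult thorax and eversion of the imaginal discs around the prepupal stage, and for stress and wound responses.

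Sequences of the summit base with 50 bases to each side are given for the strongest optimal region of kay, puc, msn and wgn. For hep the weaker of its 2 regions (rank 5017) is shown, because the window of the stronger one (rank 2066) holds over 30 exonic bases. A further window is given for the strongest region in an intron of msn itself, added after its rank was seen. The upstream region of kay is shown because it was the strongest of the 35, and the region inside puc because it was the strongest of the 10 there. Capitals mark the AP-1 element (TGANTCA), the sequence CTATCGA and the sequence TTTAAAA on either strand. The sequences are from the Release 6 genome (dm6), 5′ to 3′.
kay, upstream intergenic region (chr3R:29763306-29763406, plus strand): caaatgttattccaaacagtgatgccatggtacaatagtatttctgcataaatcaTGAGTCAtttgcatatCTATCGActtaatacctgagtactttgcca
puc, at the start of lncRNA:CR44331 (chr3R:8114034-8114134, plus strand): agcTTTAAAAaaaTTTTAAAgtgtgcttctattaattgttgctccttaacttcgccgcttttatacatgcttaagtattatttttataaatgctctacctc
msn, downstream of the gene in an intron of Spn (chr3L:2552683-2552783, plus strand): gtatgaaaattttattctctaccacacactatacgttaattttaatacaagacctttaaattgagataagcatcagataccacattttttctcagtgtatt
msn, intron of msn (chr3L:2583090-2583190, plus strand): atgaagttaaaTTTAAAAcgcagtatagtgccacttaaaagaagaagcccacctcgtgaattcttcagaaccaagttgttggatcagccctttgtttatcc
hep, intron (chrX:13088149-13088249, plus strand): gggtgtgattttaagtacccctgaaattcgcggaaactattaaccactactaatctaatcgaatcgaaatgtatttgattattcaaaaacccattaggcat
wgn, own start (chrX:18635419-18635519, plus strand): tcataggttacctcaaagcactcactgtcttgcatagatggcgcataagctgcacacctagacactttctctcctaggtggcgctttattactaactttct
The sequence at kay holds TGAGTCA 8 bp from the summit and CTATCGA 24 bp from it. The sequence inside puc holds TTTAAAA on both strands, and the windows at hep, at wgn and downstream of msn hold none of the 3. The window in the msn intron holds TTTAAAA.

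The optimal set is the authors' list of regions after a threshold on reproducibility. Candidate lists of the replicates pooled and of each replicate are longer and include background, with 28752, 29999 and 29972 regions on the arms. The optimal set was the top of the pooled list by signal, with a lowest signal of 98.5. Depth is unknown from these lists, and signals were compared only within a list. On chromosome arm 2L, replicate 1 listed no candidate in a stretch of 213 kb that contains bsk, the 11th longest of its 29993 gaps, against a median gap of 2049 bp. In that stretch replicate 3 listed 49 candidates, or 23.0 per 100 kb against 23.6 over the arm, and 14 of them were among its 7426 strongest. The cause was not tested.

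The regions were spread unequally along the pathway. The phosphatase gene puc had 10 optimal regions, and the Fos gene kay and the kinase gene msn had 9 each, so 28 of the 35 lay at 3 genes. Jra had 3, hep 2, and egr and wgn 1 each. None was found at bsk, slpr or grnd. Over all protein-coding genes 53.3% had an optimal region by the same rule, which 7 of 10 is read against. With only 10 genes, chosen by name, no test of that share was made.

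Among the ligand and its receptors, each gene had at most 1 optimal region, and of the 3 only wgn had one near its own start. The gene egr encodes Eiger, the TNF ligand (FBgn0033483, chromosome arm 2R, 10078366 to 10084210). Its region, 10081724 to 10081953, lay inside the gene, 3486 bp from the egr start and 470 bp from the start of a small nucleolar RNA gene, snoRNA:Or-CD13. Its rank was 1437 among optimal regions, 1321 in replicate 1 and 1657 in replicate 3. The start of egr itself had no optimal region but a pooled candidate, 45 bp away, at rank 14758. Candidates there ranked 27732 in replicate 1 and 13148 in replicate 3.

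The gene wgn encodes the TNF receptor Wengen (FBgn0030941, X, 18624042 to 18634908, minus strand). Its region, 18635392 to 18635582, was 561 bp upstream of its single annotated start. That region had rank 3003, with 3062 in replicate 1 and 2937 in replicate 3, so the replicates placed it almost alike. The other receptor gene, grnd (Grindelwald; FBgn0032682, 2L, 18485417 to 18488021), had no optimal region, and the nearest was 7875 bp away at rank 3811. The replicates differed there. Replicate 3 had a candidate, 18484639 to 18485028, less than 1000 bp upstream of the grnd start at rank 5736, while replicate 1 had 2 candidates, neither within 1000 bp of the start, the better at rank 7771. With replicate 3 alone as the source, grnd counted among the genes with a region, and 8 of the 10 genes had one.

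Among the kinases, msn held nearly all of the regions. It encodes Misshapen, a kinase of the Ste20 group that acts at the top of the kinase chain (FBgn0010909, 3L, 2554847 to 2586540, minus strand). Of its 9 regions, 6 lay in its own introns, between 1960 and 15629 bp from its nearest start. The strongest of these, 2583000 to 2583278, lay 3114 bp from a start and ranked 551, with ranks 634 in replicate 1 and 507 in replicate 3. The other 5 ranked between 1394 and 6960. The strongest region given to msn, 2552524 to 2552872, was past the 3′ end of the gene in an intron of Spn, at rank 346. It ranked 373 and 330 in replicates 1 and 3.

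At the 5′ end of msn, 1 region (2587283 to 2587527, rank 1846) was 865 bp upstream of an msn start but only 51 bp from the start of RpL8, a ribosomal protein gene. A further region, at rank 5125, was 150 bp from the start of dos, an adaptor of receptor tyrosine kinase signalling. The msn starts themselves had a pooled candidate 93 bp away, which ranked 8770 and so fell outside the optimal set. The summits of neighbouring regions at msn were 1154 to 17892 bp apart.

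The gene hep encodes the kinase that phosphorylates JNK (FBgn0010303, X, 13079205 to 13090434, minus strand) and had 2 regions. The first, 13088001 to 13088396, lay in an intron 2235 bp from the hep start at rank 5017, and its replicate ranks were 5338 and 4976. The second, 13094224 to 13094444, was stronger, at ranks 2066, 1773 and 2401, but was 28 bp from the start of the neighbouring gene CG2200. The gene lic, whose product is a kinase that phosphorylates p38, lies between hep and that region. By the same rule both regions of hep also count for lic. At the hep start there was a pooled candidate 25 bp away, at rank 13580.

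The remaining kinase genes had no optimal region. For slpr, which encodes Slipper, a kinase of the mixed lineage family (FBgn0030018, X, 8170229 to 8177185, minus strand), the nearest optimal region was 12786 bp away. Replicate 3 had 4 candidates there, the strongest 91 bp from the slpr start at rank 11952, and replicate 1 had none. For bsk, the gene of JNK itself (FBgn0000229, 2L, 10247502 to 10250501, minus strand), all 4 lists were empty within 5 kb, and the nearest optimal summit was 46463 bp away. In the stretch around bsk that is empty in replicate 1, the pooled list held 4.23 regions per 100 kb, against 23.0 over the arm, so an absence of Hr39 at bsk cannot be read from these lists. In replicate 3, where candidates continued through the stretch, the nearest summit to a bsk start was 10036 bp away.

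**Figure D1:**
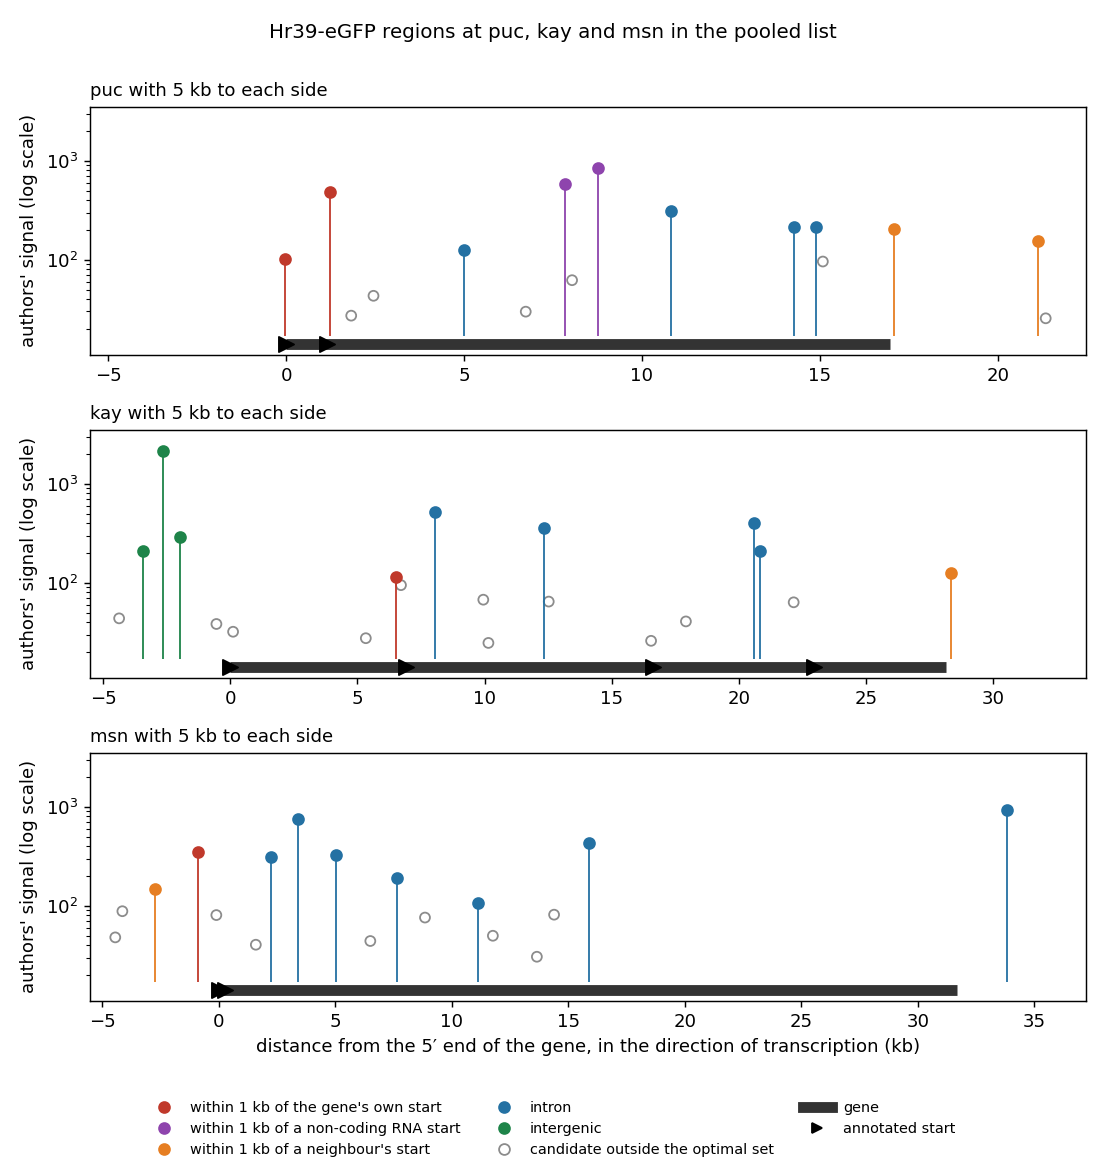
Optimal regions (filled, coloured by place) and pooled candidates outside the optimal set (open) at puc, kay and msn. The x axis is the distance from the 5′ end of each gene in kb, in the direction of transcription, and the y axis is the authors' signal on a log scale; the tallest line is the region 2639 bp upstream of kay, and the tallest lines at puc stand at the start of a non-coding RNA inside the gene.

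The AP-1 genes differed in where their regions lay. The Fos gene kay (kayak; FBgn0001297, 3R, 29765995 to 29794113) had 3 regions upstream of the gene, 4 in its introns, 1 near a start of its own and 1 near a neighbour. The upstream region 29763149 to 29763550, between genes and 2639 bp before the first kay start, had a signal of 2138 and ranked 56 of 7426. It ranked 61 in replicate 1 and 49 in replicate 3, with summits within 1 bp of the optimal summit in both. On its sides stood weaker regions at 3428 and 1978 bp upstream, at ranks 3540 and 2399. The 4 intronic regions of kay ranked 1003, 1815, 1543 and 3613, in the order of transcription. The last pair overlapped, with summits 217 bp apart, so they may be read as 1 place counted as 2.

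Of the 4 annotated starts of kay, only the second had an optimal region within 1000 bp, 396 bp away and weak, at rank 6542. The first start had a pooled candidate 112 bp away but its nearest optimal summit was the one 1978 bp upstream. Downstream of kay, a region at rank 6098 was 272 bp from the start of sro (shroud), a gene of ecdysteroid synthesis.

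The Jun gene Jra is short (FBgn0001291, 2R, 10096480 to 10098556) and all 3 of its regions were within 1000 bp of a start. The region 10096703 to 10097098 was 27 bp from the second Jra start at rank 4970, with 4533 in replicate 1 and 5397 in replicate 3. The other 2 regions were stronger, at ranks 2991 and 3449, but were 24 and 242 bp from a start of the neighbouring gene 14-3-3zeta, which encodes a phosphoprotein-binding adaptor. With flanks counted in the length, Jra had 2.48 regions per 10 kb and kay 2.36. The window of Jra was 12077 bp for a gene of 2077 bp, and the 2 regions at 14-3-3zeta lay outside the gene. No number per length was computed without flanks.

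The feedback phosphatase gene puc (puckered, FBgn0243512, 3R, 8105332 to 8122294) had the most regions of the 10 genes. With flanks counted in the length it also had the most per length, with 3.71 per 10 kb. msn had 2.16, hep 0.942, egr 0.631 and wgn 0.479. Both annotated starts of puc had an optimal region. At the first start the region 8105102 to 8105497, 32 bp away, was the weakest of all 35, with a signal of 102 and rank 7205. The replicates placed it far apart, at rank 17384 in replicate 1 and 5775 in replicate 3. At the second start the region 8106381 to 8106773 was 72 bp away and ranked 1148, with ranks 1476 and 866 in replicates 1 and 3.

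The strongest regions at puc were neither at its starts nor at a protein-coding neighbour. Region 8113909 to 8114258, inside a puc intron, had rank 425, with 426 in replicate 1 and 419 in replicate 3. It was 81 bp from the start of lncRNA:CR44331, a long non-coding RNA gene that lies within puc. Region 8112992 to 8113365, in the same non-coding gene and 834 bp from its start, ranked 831, with ranks 763 and 943 in the replicates. Another 4 regions lay in introns of puc at ranks 2229 to 6056. The last 2 stood past its 3′ end, 297 bp from the start of CG7878 (rank 3687) and 108 bp from the start of CG9667 (rank 4978). The 3 strongest candidates just outside the optimal set were at puc (rank 7587, signal 96.0), kay (rank 7673, signal 94.7) and msn (rank 8123, signal 88.2).

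**Figure D2:**
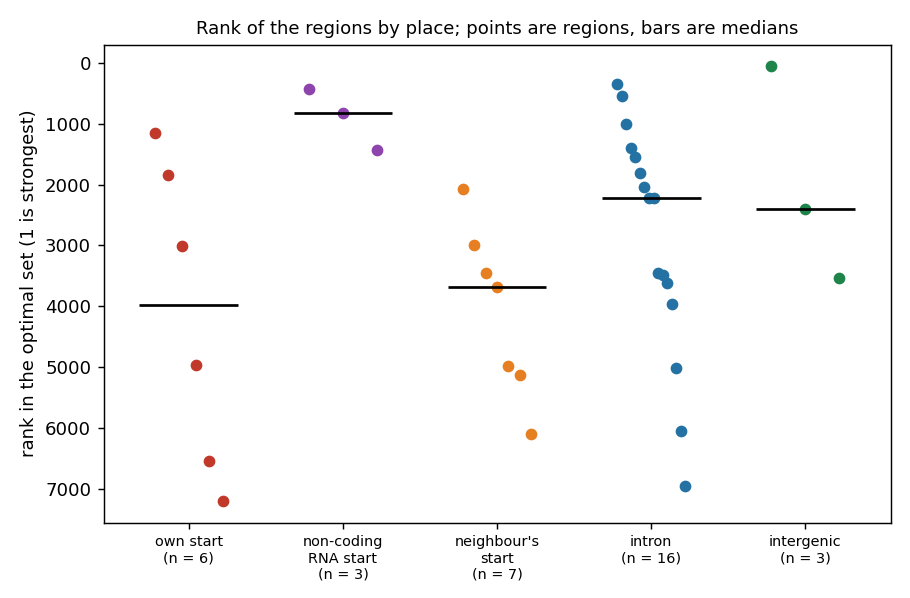
Rank in the optimal set (y axis, 1 at the top is the strongest) of the 35 regions by place; points are regions, bars are medians and n is the number of regions. The 3 regions near non-coding RNA starts have a median rank of 831 and the 6 at the genes' own starts 3986.5. Of those 3, the regions at ranks 425 and 831 are both at lncRNA:CR44331 inside puc.

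Promoters and introns held the same number of regions. Of the 35, 16 (45.7%) had a summit within 1000 bp of an annotated start of any gene, 16 (45.7%) were in introns away from starts, and 3 (8.57%) were intergenic. Among all optimal regions the shares were 47.4%, 35.8% and 15.3%. Coding exons and untranslated or non-coding exons held 0 of the 35, against 6 and 103 of 7426. The 16 intronic regions had a median rank of 2227, against 3935 for all intronic regions, and 12 of them were stronger than the median of the optimal set, as were 47.0% of all intronic regions. The 16 promoter regions had a median rank of 3226, against 3324 for all promoter regions, and 10 of them were stronger than the median of the set, as were 54.7% of all promoter regions. Of the 16 intronic regions 15 were inside the 10 genes, from only 4 of them, so they are not independent. The intronic median depended on the limit: with promoters taken as 2000 bp, it was 3459 over the 13 regions left. The median of all intronic regions at that limit was not computed, so 3459 is not to be set against 3935.

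Few of the 16 promoter regions belonged to the 10 genes themselves. Starts of their own accounted for 6 regions at 5 genes (puc, kay, Jra, msn and wgn), starts of non-coding RNA genes alone for 3, and starts of neighbouring protein-coding genes alone for 7, with median ranks of 3986.5, 831 and 3687. The msn region among the 6 was 865 bp from an msn start but 51 bp from that of RpL8. Of the 3 at non-coding RNA starts, those at ranks 425 and 831 were both at lncRNA:CR44331 inside puc. Over all protein-coding genes 25.2% had an optimal region within 1000 bp of a start of their own. Of the 18 annotated starts of the 10 genes, 7 had an optimal region and 13 a pooled candidate within that distance. The share of all annotated starts was computed for neither list, so these counts have no background to be read against. Inside the genes lay 21 of the 35 regions, and for 21 the nearest protein-coding start belonged to one of the 10.

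**Figure D3:**
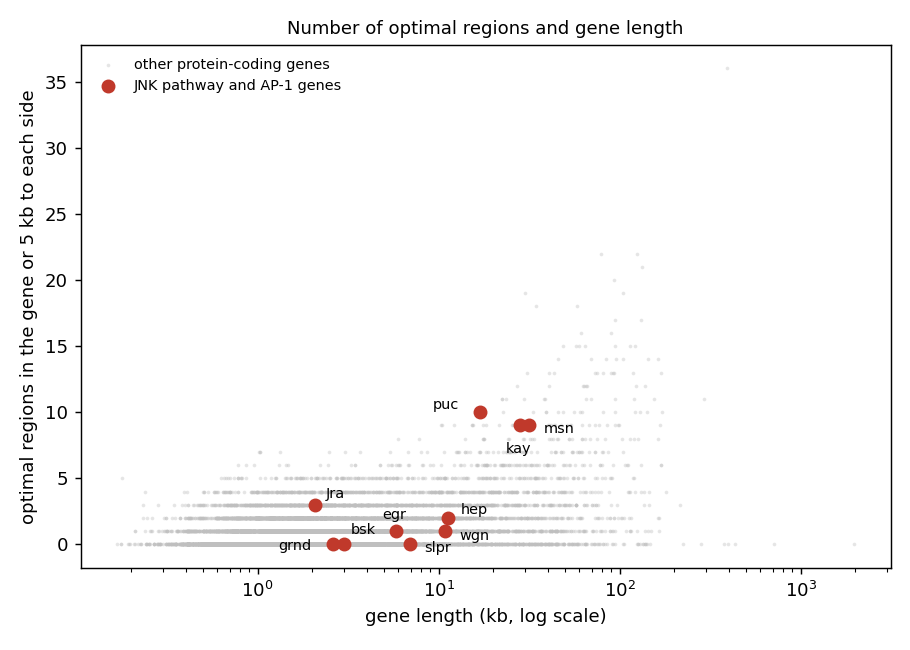
Number of optimal regions in each gene or within 5 kb (y axis) against gene length (x axis, kb, log scale) for the 10 genes (red, named) and all other protein-coding genes (grey). puc, kay and msn stand at 9 or 10 regions among genes over 15 kb, and bsk, grnd and slpr at 0.

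Longer genes have more room for regions, so counts were read within classes of length. Among genes over 15 kb 77.3% had a region, with a median of 2, and puc, kay and msn all had. In that class 7.65% of 1359 genes had 9 or more regions, as all 3 did, and 74 genes had 10 or more, as puc did. Among genes of 5 to 15 kb 65.7% had a region, with a median of 1, and hep, egr and wgn did while slpr did not. Among genes under 5 kb 47.6% had a region, with a median of 0. Jra did, grnd and bsk did not, and the 3 regions of Jra were reached by 977 of 10461 genes in that class. No other gene matched puc in its numbers of optimal, promoter and intronic regions (10, 6 and 4), although 15 others had 10 regions.

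**Figure D4:**
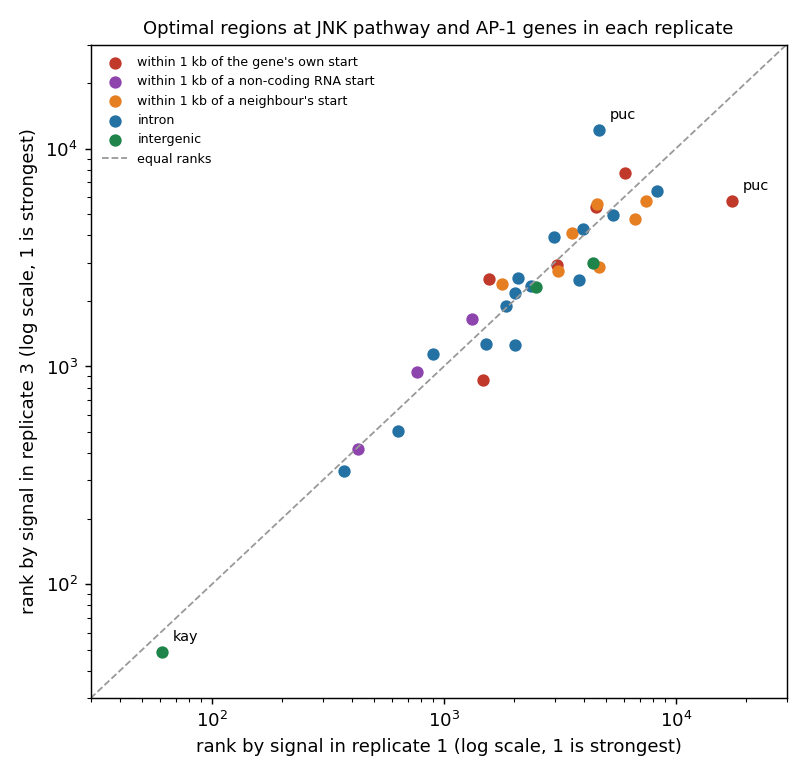
Rank of each of the 34 regions matched in both replicates, in replicate 1 (x axis) and in replicate 3 (y axis), on log scales, coloured by place; the dashed line marks equal ranks. The points follow the line over the whole range, except for 2 regions of puc.

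The replicates ranked these regions alike. A candidate summit within 100 bp was found in replicate 1 for all 35 and in replicate 3 for 34, so 97.1% had one in both, against 93.6% of all optimal regions. The exception was the puc region 8119508 to 8119613, whose nearest summit in replicate 3 was 111 bp away at rank 3265. Across the 34 regions Spearman's rho of the ranks was 0.942, a description over regions that share 2 libraries and 7 genes. The ranks were within 1.5 times of each other for 27 of the 34 and over 2 times apart for 2, the weakest region at the first puc start and an intronic puc region ranked 4659 and 12178. The optimal set was the top of a list pooled from these same 2 replicates, so this likeness is no independent check.

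Few known motifs lay at the summits. Within 50 bp of the summit the AP-1 element TGANTCA was found on either strand in 2 of 35 regions (5.71%), against 2.75% of all optimal regions and 2.29% of windows 500 bp to each side. The 2 were the upstream region of kay and the promoter region of Jra, the genes that encode AP-1 itself. Within 100 bp it was found in 3, the third also upstream of kay, against 5.13% of all optimal regions. At the share seen in all optimal regions, 0.961 of 35 would hold it, and 2 regions are too few to set against that number. In the strongest regions of each replicate alone the count was 1, and the kay region was the one that kept it.

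The NR5 element CAAGGTCA, to which receptors of this family bind, was found in 0 of 35 within 50 bp and in 0 within 100 bp. Only this exact sequence was counted, on either strand. It was rare at all optimal regions too, at 0.310% and 0.512%, so its absence from 35 windows carries little information. The cyclic AMP response element TGACGTCA was likewise found in 0 of 35 and in 0.121% of all. The DNA replication-related element TATCGATA, common at promoters of housekeeping genes in flies, was found in 2 regions, the one at CG2200 beside hep and the promoter region of Jra, against 1.23% of all optimal regions. CTATCGA, which can overlap it, was found in those 2 and in the upstream region of kay, against 2.17% of all. TTTAAAA was found in 5 of 35 (14.3%), against 13.7% of all and 4.40% of flanking windows. GAGAG was found in 2 of 35 (5.71%), against 8.79% and 14.5%. The windows had a median GC content of 33.7%, against 32.7% for all optimal regions.

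Genes that feed into or follow the pathway were described from lists chosen by role. Of 23 upstream genes (adaptors, GTPases and further kinases) 22 had an optimal region, or 95.7%, against 53.3% of all protein-coding genes, and 14 had one at a start of their own, or 60.9%, against 25.2%. Without the 5 kb flanks no share of all genes was computed, so 53.3% is no measure for such counts here or in the lists below. Of the 23 upstream genes, 11 had a region without flanks. The strongest was 165 bp from the start of Mkk4, which encodes another kinase that phosphorylates JNK, and 123 bp from the start of SLIRP2; its rank was 54, and 58 and 51 in replicates 1 and 3. Mtl, a GTPase of the Rac group, followed at rank 99, POSH, a scaffold for the kinase chain, at rank 128, and Tab2, a partner of the kinase Tak1, at rank 440. Aplip1 was the only upstream gene without a region. At Mkk4 and Mtl the strongest region was nearer to a neighbour's start than to their own.

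Of 14 known JNK target genes 10 had an optimal region, or 71.4%, against 53.3% of all genes. At a start of their own 5 had one, or 35.7%, against 25.2% of all genes. Of the 14, 5 are over 15 kb, the class in which 77.3% of genes had a region with flanks. Without the flanks 6 of the 14 had one, again with no share of all genes to read it against. The cell death gene hid led them with a region 307 bp from its start at rank 156. Atf3, which encodes a bZIP factor, had 7 regions, the strongest at rank 367 and 1904 bp upstream, and dpp, a ligand of the BMP type, had an intronic region at rank 718. At Pvf1, a growth factor gene, the strongest was at the start of the neighbouring gene htk, at rank 2121. Ilp8 and Mmp1 were among the 4 without a region. Other bZIP genes had one in 11 of 15 cases, or 73.3%, against the same 53.3%, and in 8 of 15 without the flanks. Of these 15, 6 are over 15 kb. The median length in the list was 8662 bp, against 2166 bp for all protein-coding genes. The bZIP genes were led by REPTOR at rank 152, Irbp18 at 336, Atf3, which is on both lists, and vri at 420 with 11 regions. Atf-2 and gt had none.

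Genes of the ERK and p38 cascades, the other MAP kinase chains, had a region in 9 of 10 cases, or 90.0%, against 53.3% of all genes, and in 5 of 10 without the flanks. They were led by Raf with 15 regions, the strongest intronic and at rank 66. Mekk1 followed at rank 630, and p38a and p38c shared a region at rank 1209, 33 bp from the p38a start. Of that list rl, the ERK gene, had none. With flanks, 7 of 10 JNK core genes had a region, a smaller share than in the upstream and the ERK and p38 lists. In these counts hep, of the core, and lic, of the ERK and p38 list, rest on the same regions. Without flanks the order turned, with 6 of 10 against 11 of 23 and 5 of 10. No share of all genes without flanks was computed, so this turn is not read as a result about the lists. With so few genes, and 1 of the 3 without a region in the stretch empty in replicate 1, no difference between the lists was tested. The median length was 8912 bp for the 10 genes, 4543 bp for the upstream list and 2769 bp for the ERK and p38 list.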

How the data were processed

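Hr39-eGFP ChIP-seq of 2 biological replicates of whole white prepupae was analysed from region lists on dm6: a candidate list per replicate, a pooled list and the optimal set. The signal value of each region was deposited by the authors, was not scaled to depth and served only for ranks inside each list. The −log10 q values deposited by the authors were not used for ranking. Summits were the deposited offsets from the region starts. Sonication aimed at 200 to 800 bp, per the labels. Names of the peak caller and aligner were not given in the sources used here, and no control alignment was analysed here. Depth is unknown, so no counting interval is given.

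Genes, starts and exons were read from Ensembl release 115 on this build, whose arm lengths hold all regions; 18 optimal regions outside the 6 arms were left out. A summit was put in the first class that held it: promoter (up to 1000 bp from a start of any gene), coding exon, other exon, intron or intergenic. Summits within 100 bp matched between lists. Motifs were searched on both strands within 50 bp. Analyses used Python 3.11.15, numpy 2.4.6, pandas 2.3.3, scipy 1.17.1 and matplotlib 3.10.9, and the counting was tested on simulated data.

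The genes and lists were chosen with earlier results of these data known, and no test was made. Genes named were the 10, the nearest other gene of each of their regions, and genes from each further list. From each of those came the 4 with the strongest regions and up to 2 without one in alphabetical order. Sequences with over 30 exonic bases were not shown, nor were any from chromosome arm 2R, where egr and Jra lie. Alternatives were flanks, promoter limits, match distances, motif windows, regions above the median signal, and each replicate alone.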

Additional observations from a re-analysis of the deposited data

How the results depend on the processing

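Of 93 alternative values 73 stayed within 1.5 times of the count, or within 1 SD between replicates for a median rank, and 20 did not. The 35 regions became 21 with no flank and 21 where the nearest protein-coding start had to be that of the gene; the 16 promoter regions became 6 and 7. With promoters taken as 250 bp they were 10, and with signal above the median of the optimal set 10. With no flank, 20 of the 21 regions had a candidate in both replicates, against 34 of 35 with flanks. The median promoter rank of 3226 was 3568 with a limit of 500 bp, 2695 with 2000 bp and 3687 with protein-coding starts only, which was added after seeing the data. The median intronic rank of 2227 was 3459 with 2000 bp and 2839 with the gene's 5′ end as the only start. Using 1 replicate alone gave 34 to 36 regions, 7 to 8 genes with a region, a median promoter rank of 2899.5 to 3327, an intronic one of 2079 to 2483, and 1 AP-1 region in either replicate instead of 2; over whole regions there were 4, the fourth at the second puc start. With no flank, a region was left at 6 of the 10 genes, 11 upstream genes, 6 targets and 5 ERK and p38 genes. With signal above the median, 5 of the targets had one. No share of all genes was computed at either setting. No paired analysis was possible because the samples form 1 group. The lists limit the reading: depth is unknown, the 10 genes hold only 35 regions, and replicate 1 is empty around bsk.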
